A study of Arabidopsis thaliana with 4 samples.

Results

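The genes described here encode 10 AT-hook motif nuclear-localized (AHL) proteins of Arabidopsis thaliana, out of 27444 nuclear protein-coding genes in the gene table used. They are AHL15 (AT3G55560), AHL16 (AT2G42940), AHL17 (AT5G49700), AHL18 (AT3G60870), AHL19 (AT3G04570), AHL20 (AT4G14465), AHL22 (AT2G45430), AHL25 (AT4G35390), AHL27 (AT1G20900) and AHL29 (AT1G76500). A chromatin region was given to a gene when it overlapped the gene body or the 500 bp on either side of it. The 10 genes were chosen by the region calls and the callus over leaf folds reported below, so those values describe them and test nothing.

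AHL proteins carry an AT-hook, a short motif that grips the minor groove of AT-rich DNA, and a PPC domain through which they assemble with each other and with other nuclear proteins. Plant AHL genes fall into clade A and clade B, and all 10 genes described here belong to clade A. Known clade A proteins act mostly as repressors of growth, flowering or defence genes, in part by drawing histone deacetylases to chromatin, and AHL15 is known as an inducer of somatic embryos.

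The libraries came from Col-0 plants: mature rosette leaf, and callus that formed on leaf explants from seedlings 2 weeks old after 15 days on CIM (callus induction medium), both labelled as untreated. The protocol names the leaves as parental to the callus and gives no other age for them. Acetylated histone H3 (H3ac) and histone H3 trimethylated at lysine 4 (H3K4me3), marks of genes in use, were each profiled by chromatin immunoprecipitation sequencing in 1 library per tissue. Thus 4 libraries were used, no difference has a replicate check, and tissue and time on the medium cannot be told apart. In bulk tissue, more cells with a mark and more mark per cell cannot be told apart either. Tags, the reads counted in the 147 bp around a region's centre, were listed for regions at least 2-fold higher in callus. A gene that is not listed may be lower, unchanged or higher by less than the authors' thresholds, and no tag number of it was used here. Total depth is unknown. By the spacing of the tag values, callus depth was 1.369 times leaf depth for H3ac and 1.016 times for H3K4me3. Brackets after a fold hold its exact 95% interval for counting error. Marker genes were set beside the tissue labels, but they were chosen with earlier results of these data known, so they are no independent check. Of the callus markers (PLT1, PLT2, BBM and WOX11), 4 of 4 were listed as higher in callus for each mark. Of all genes with a region, 7.03% (H3ac) and 8.01% (H3K4me3) were. H3K4me3 regions called in leaf alone lay at 5 of 7 leaf markers (CAB2, CAB3, RBCS1A, NPQ4 and STOMAGEN). All regions were called in leaf alone for 3.26% (H3ac) and 2.9% (H3K4me3) of all genes with a region. For H3ac the leaf check was weaker: 2 of 7 leaf markers (LHCA2 and STOMAGEN) had all their regions called in leaf alone. PSAO had a region called in leaf alone over 83.5% of its body, and a region called in both tissues 177 bp outside it. RBCS1A had a region called in both tissues, and CAB2, CAB3 and NPQ4 had none.

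Callus had more tags of both marks than leaf at 6 of the 10 AHL genes, namely AHL19, AHL20, AHL22, AHL25, AHL27 and AHL29, and more H3ac tags at AHL18. AHL15 and AHL17 had broad regions of both marks in both tissues and were listed for neither mark. AHL16 had no region on its gene body. By the 500 bp rule 10 of 10 genes had an H3ac region and 10 of 10 an H3K4me3 region, against 69.2% and 73.3% of all genes. Of these, 7 of 10 were listed as higher in callus for H3ac, where 7.03% of all genes with an H3ac region were. For H3K4me3, 6 of 10 were listed, against 8.01% of all genes with an H3K4me3 region. The 6 of 10 listed for both marks stand beside 3.18% of genes with regions of both. Since the genes were chosen with this contrast in view, nothing is read from these shares.

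**Figure D1:**
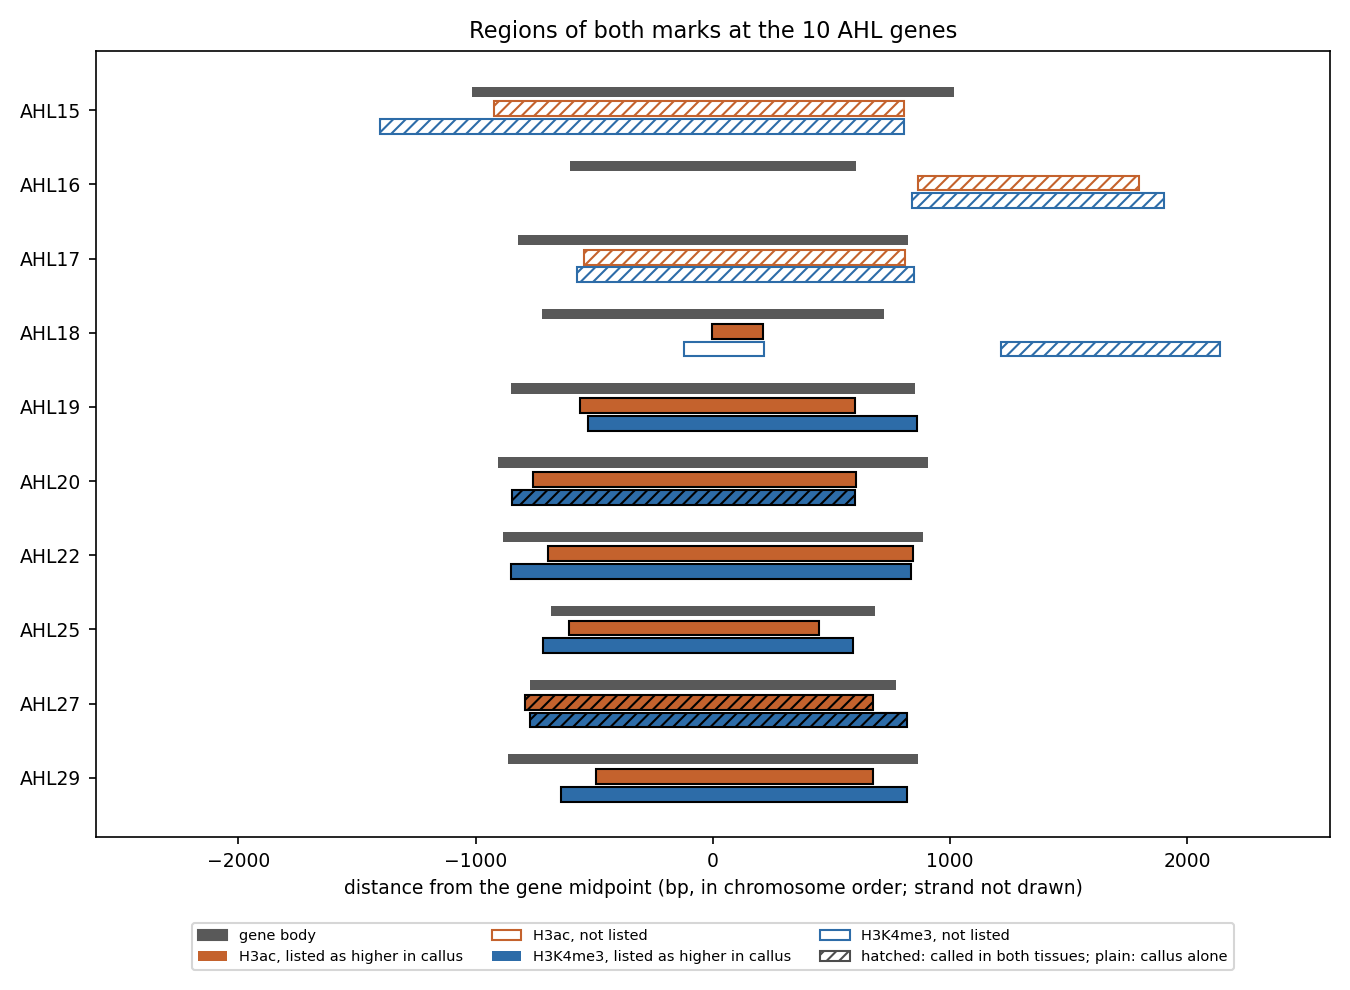
Regions of H3ac (orange) and H3K4me3 (blue) at the 10 AHL genes, placed by distance in bp from the middle of each gene body (grey bar), in chromosome order without strand. Filled bars were listed as higher in callus, open bars were not, and hatched bars were called in both tissues (AHL27 and the H3K4me3 region of AHL20 are filled and hatched). Regions of both marks cover most of the body of 8 genes, AHL18 has short regions, and the regions given to AHL16 lie outside its body.

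Among the genes of gibberellin feedback, AHL25, also called AGF1, had large folds and AHL15 was not listed. AHL25 binds the promoter of the gibberellin synthesis gene GA3OX1 and takes part in its negative feedback. In the authors' deposited table AHL25 had 77.1 H3ac tags in callus and 5 in leaf, and 231.4 H3K4me3 tags in callus and 25.5 in leaf. Callus was thus far above leaf for each mark. These numbers gave 15.41-fold (6.4 to 48.5) for H3ac and 9.07-fold (6.02 to 14.2) for H3K4me3 in the authors' deposited table. The H3ac region ran from 16829404 to 16830454 and the H3K4me3 region from 16829294 to 16830599 on chromosome 4 (TAIR10), and both were called in callus alone. AHL15, named AGF2 in RefSeq, acts downstream of the embryogenesis factor BBM in somatic embryo formation. Its H3ac region (20604710 to 20606439 on chromosome 3) and its H3K4me3 region (20604230 to 20606440) were called in both tissues. Their scores, the authors' own values per region, lay at the 96.5th and 97.3rd percentile of the merged H3ac and H3K4me3 lists. AHL15 therefore had high-scoring regions of both marks with a leaf call, and no fold was listed for it.

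The genes of seedling growth, flowering and leaf ageing, AHL22, AHL27 and AHL29, were all listed for both marks. AHL29 (SOB3) and AHL27 (ESC) restrain hypocotyl elongation in light, AHL27 also delays leaf senescence, and AHL22 delays flowering through the florigen gene FT. AHL22 had 56.6 H3ac tags in callus and 6 in leaf in the authors' deposited table, which is 9.43-fold (4.14 to 26.5). Its H3K4me3 tags were 202.3 in callus and 31 in leaf, 6.53-fold (4.46 to 9.85), in the authors' deposited table. Both AHL22 regions, from 18727692 to 18729230 (H3ac) and from 18727538 to 18729223 (H3K4me3) on chromosome 2, were called in callus alone.

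For AHL29 the authors' deposited table gave 78.5 H3ac tags in callus and 9 in leaf, or 8.72-fold (4.43 to 19.6). It gave 207.7 H3K4me3 tags in callus and 43 in leaf, or 4.83-fold (3.47 to 6.87), in the same authors' deposited table. These regions (28705332 to 28706501 and 28705185 to 28706644 on chromosome 1) were again called in callus alone. AHL27 differed in that leaf had called regions of both marks, at 7272506 to 7273972 (H3ac) and 7272529 to 7274116 (H3K4me3) on chromosome 1. Its H3ac tags in the authors' deposited table were 92 in callus and 29 in leaf, or 3.17-fold (2.11 to 4.93). Its H3K4me3 tags were 260.9 in callus and 57.5 in leaf in the authors' deposited table, or 4.54-fold (3.4 to 6.14). AHL27 had the most H3ac leaf tags of the 7 listed genes and the smallest H3ac fold.

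Both defence genes had more tags in callus for both marks. AHL19 promotes resistance to Verticillium and AHL20 holds back immune responses to bacterial patterns. AHL19 had 63.5 H3ac tags in callus and 3.5 in leaf in the authors' deposited table, 18.16-fold (6.45 to 76.7). With 260.4 H3K4me3 tags in callus and 26.5 in leaf it had 9.83-fold (6.58 to 15.3) for that mark in the authors' deposited table. Each fold of AHL19 was the largest among the listed AHL genes described here for its mark. The H3ac fold ranked 14 among the 1617 listed H3ac regions and the H3K4me3 fold 185 among 1359. Of the listed H3ac regions 1540 were nuclear, as were all listed H3K4me3 regions. Ranks, percentiles, medians and spreads over listed regions use the full lists. The AHL19 regions lay at 1231037 to 1232196 (H3ac) and 1231072 to 1232457 (H3K4me3) on chromosome 3 and were called in callus alone.

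AHL20 had the most H3ac callus tags of the listed AHL genes, 103.7, beside 18 in leaf, or 5.76-fold (3.52 to 10) in the authors' deposited table. For H3K4me3 it had 241.7 tags in callus and 74.5 in leaf, 3.24-fold (2.49 to 4.26), the smallest H3K4me3 fold among the 6 listed genes in the authors' deposited table. The AHL20 H3ac region (8320685 to 8322047 on chromosome 4) was called in callus alone, and its H3K4me3 region (8320598 to 8322042) in both tissues.

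AHL18, AHL16 and AHL17 differed from these genes and from each other. AHL18, which shapes the root system, had a short H3ac region of 217 bp (22493529 to 22493745 on chromosome 3), called in callus alone. It held 27 tags in callus and 3 in leaf, 9.01-fold (2.85 to 45.6), in the authors' deposited table. A short H3K4me3 region of 340 bp at the same place (22493408 to 22493747) was also called in callus alone and was not listed as higher. Its score lay at the 6.85th percentile of the merged H3K4me3 list, and that of the H3ac region at the 10.4th. AHL16 (TEK) is known for transposon silencing and for a role in the tapetum in pollen wall formation. It was given regions that start 262 bp (H3ac) and 240 bp (H3K4me3) from its body. Both overlapped the neighbouring gene AT2G42950, were called in both tissues and were not listed. A further H3K4me3 region, 494 bp from the AHL18 body, overlapped its neighbour DHDPS1 (AT3G60880). AHL17 had regions in both tissues at 20192434 to 20193787 (H3ac) and 20192406 to 20193825 (H3K4me3) on chromosome 5, with scores at the 92.4th and 78.3rd percentile, and was not listed.

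**Figure D2:**
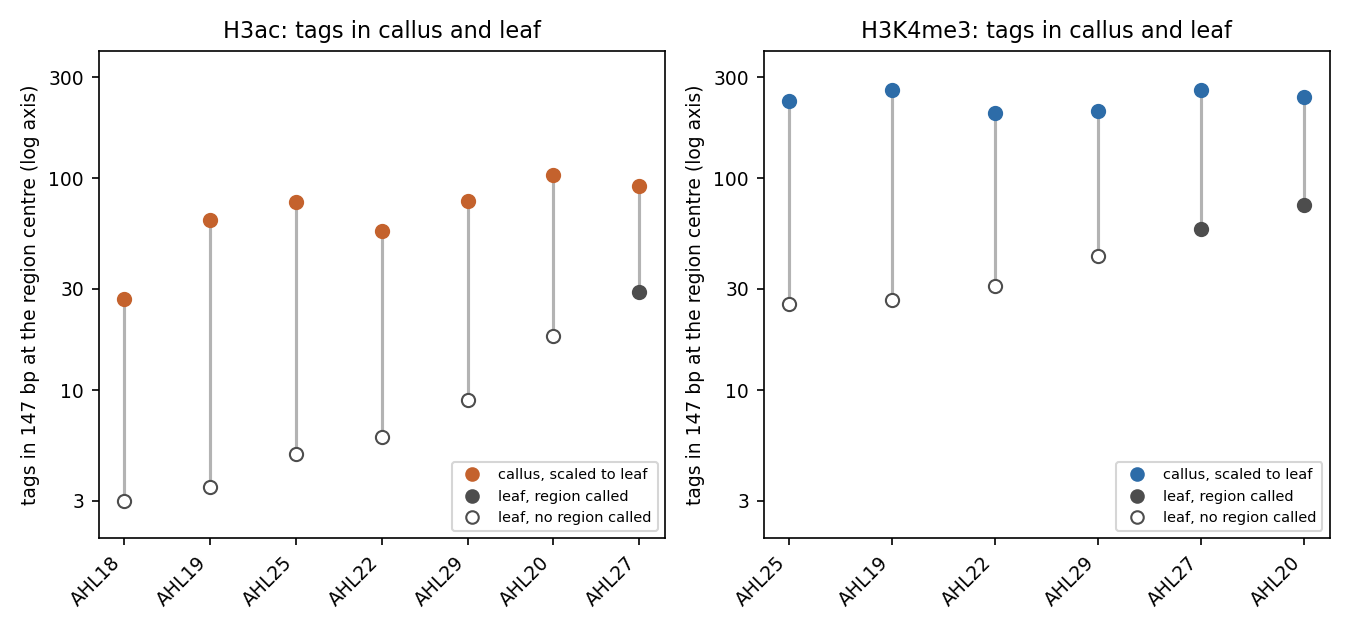
Tags in 147 bp at the region centre, on a log axis, for the AHL genes listed as higher in callus, ordered by leaf tags within each mark. Coloured points are callus tags scaled to the leaf library, dark points are leaf tags where a leaf region was called, and open points are leaf tags where none was. H3K4me3 callus tags lie between 202.3 and 260.9, while leaf tags run from 25.5 to 74.5.

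Within each mark, the listed AHL genes varied less in callus tags than in leaf tags. The choice of genes and the listing rest on these same tags, and H3ac leaf tags were as few as 3 to 29. Nothing about the genes is therefore read from the difference in spread. For H3K4me3 the highest callus value was 1.29 times the lowest over the 6 listed genes, and the highest leaf value was 2.92 times the lowest, from values in the authors' deposited table. On the log2 scale the standard deviation over these 6 genes was 0.16 for callus tags and 0.63 for leaf tags. For H3ac the highest callus value was 3.84 times the lowest over 7 genes and the highest leaf value 9.67 times, with standard deviations of 0.64 and 1.22. Without AHL18 the callus values spanned 1.83 times and the leaf values 8.29 times, with standard deviations of 0.32 and 1.16. Over all listed regions the standard deviations were 0.54 (callus) and 0.89 (leaf) for H3ac and 0.65 and 1.36 for H3K4me3, so leaf tags varied more than callus tags there as well. The AHL genes sat high among listed regions in callus: their H3K4me3 callus tags lay at the 87.5th to 96.3rd percentile, and H3ac callus tags, AHL18 apart, at the 84.9th to 98.4th. AHL18 stood at the 16.7th. Of the other listed AHL genes, AHL6, AHL10 and AHL21 lay at the 87.3rd to 96.8th for H3K4me3, and AHL26 at the 63.7th. For H3ac, AHL7, AHL21, AHL23 and the higher AHL8 region lay at the 92.5th to 98th. The lower AHL8 region, AHL24 and AHL26 lay at the 0.68th to 56th. The listed regions of the AHL genes described here were also longer than listed regions in general, with medians of 1450 against 647 bp for H3K4me3 and 1170 against 366 bp for H3ac.

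A call in callus alone did not mean that leaf had no tags at the region centre. No input library entered the tables, so such leaf tags cannot be told apart from background. The 4 AHL genes with listed H3K4me3 regions called in callus alone, AHL19, AHL22, AHL25 and AHL29, had 25.5 to 43 leaf tags at the region centre in the authors' deposited table. The AHL18 region called in callus alone was not listed, so no tags are given for it. The median over the 977 listed H3K4me3 regions called in callus alone was 22.5. For H3ac, the 6 AHL genes with regions called in callus alone had 3 to 18 leaf tags, beside a median of 11 over 1443 such regions in the authors' deposited table. No AHL gene had a region called in leaf alone. All regions were called in callus alone for 6 of 10 AHL genes in H3ac and 4 of 10 in H3K4me3, against 5.37% and 3.99% of all genes with a region, and in leaf alone for 0 of 10, against 3.26% and 2.9%.

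The order of the folds was loose within each mark. For H3ac it ran from AHL19 and AHL25 through AHL22, AHL18, AHL29 and AHL20 to AHL27. With 1 tag taken as 1 read, no interval of neighbours in this order lay apart. Of 21 pairs, only AHL19 with AHL27 and AHL25 with AHL27 then had intervals that did not overlap. For H3K4me3 it ran from AHL19 and AHL25 through AHL22, AHL29 and AHL27 to AHL20, with no separation between neighbours. Here, again with 1 tag taken as 1 read, 4 of 15 pairs did not overlap: AHL19 with AHL27, and AHL19, AHL25 and AHL22 each with AHL20. The narrower intervals with 0.5 tags taken as 1 read separated further pairs, but no neighbours. For H3ac these were AHL19 with AHL20, and AHL22 and AHL29 each with AHL27. For H3K4me3 they were AHL19 and AHL25 each with AHL29, and AHL25 with AHL27. At 4-fold or more, 6 AHL genes were left for H3ac, where 1.78% of genes with a region reached that fold, and 5 for H3K4me3, where 3.16% did.

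In 5 of the 6 described AHL genes listed for both marks the H3ac fold was above the H3K4me3 fold. This was so for 34.6% of the 590 genes listed for both marks. The other AHL genes listed for both had the same order: AHL21 (7.23-fold for H3ac and 2.38-fold for H3K4me3) and AHL26 (4.7-fold and 3.76-fold). The 6 genes were chosen with these folds in view, so nothing is read from this order. The ratio of the H3ac to the H3K4me3 fold was 1.85 for AHL19, 1.81 for AHL29, 1.78 for AHL20, 1.7 for AHL25 and 1.44 for AHL22. AHL27, with 0.698, was the exception. With 1 tag taken as 1 read, the intervals of the marks overlapped for each of the 6 genes. Overlap does not show that the order was within counting error, and the difference between the marks was not tested. With 0.5 tags taken as 1 read, the AHL20 intervals, 4.06 to 8.39 (H3ac) and 2.7 to 3.92 (H3K4me3), did not overlap. Those of the other described genes listed for both marks still did. Outside the described genes, the AHL21 intervals did not overlap even with 1 tag taken as 1 read, at 3.77 to 15.5 (H3ac) and 1.84 to 3.1 (H3K4me3). The AHL26 intervals overlapped with either reading of a tag. By the highest region of each gene, the callus markers had the opposite order, with 3.5 to 7.4-fold for H3ac and 23.72 to 31.11-fold for H3K4me3 in the authors' deposited table. A further H3K4me3 region of PLT2 had 4.13-fold (2.6 to 6.82), below the PLT2 H3ac fold of 6.65. Further H3ac regions of PLT1, PLT2 and BBM had 2.04 to 3.5-fold.

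**Figure D3:**
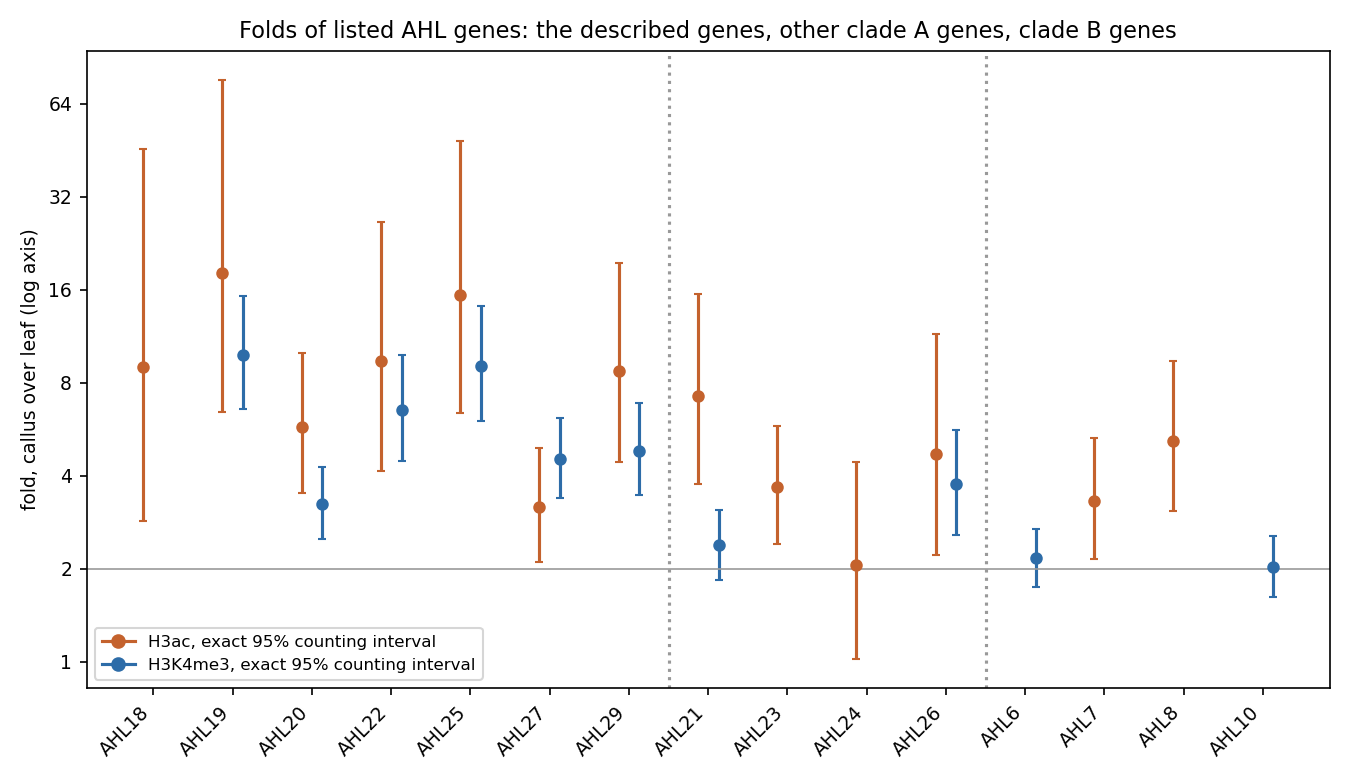
Folds of callus over leaf, on a log axis, for every listed AHL gene, with exact 95% counting intervals and the 2-fold listing threshold as a grey line. Dotted lines separate the genes described here, the other clade A genes and the clade B genes. H3ac folds reach 18.16 (AHL19) and clade B folds are at most 5.2 (AHL8).

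In the rest of the AHL family, listed genes lay in both clades. Of the 5 other clade A genes, 4 were listed for H3ac: AHL21, AHL23, AHL24 and AHL26. AHL21 (GIK), a target of the floral regulator AGAMOUS, had 72.3 H3ac tags in callus and 10 in leaf, or 7.23-fold (3.77 to 15.5), in the authors' deposited table. AHL21 had 2.38-fold (1.84 to 3.1) for H3K4me3 in the authors' deposited table. AHL26 had 4.7-fold (2.22 to 11.5) for H3ac at the higher of 2 regions and 3.76-fold (2.57 to 5.61) for H3K4me3 in the authors' deposited table, all called in callus alone. AHL23 had 3.67-fold (2.4 to 5.79) for H3ac, and AHL24 2.06-fold (1.02 to 4.45), on 23.7 callus and 11.5 leaf tags, in the authors' deposited table. AHL24 also had an H3K4me3 region called in callus alone that was not listed, and AHL28 was listed for neither mark.

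Over clade A as a whole, 11 of 15 genes were listed for H3ac, 8 of 15 for H3K4me3 and 8 for both marks. Of the 14 clade B genes, 14 had regions of each mark, 2 were listed for H3ac, 2 for H3K4me3 and 0 for both. Clade B thus had 14.3% of its genes listed for each mark and clade A 73.3% for H3ac and 53.3% for H3K4me3, beside 7.03% (H3ac) and 8.01% (H3K4me3) of all genes with a region. The share listed for each of the marks was 3.18% where a gene had both kinds of region. AHL8 with 5.2-fold (3.07 to 9.42) and AHL7 with 3.32-fold (2.15 to 5.32) were the clade B genes listed for H3ac in the authors' deposited table. AHL6 with 2.17-fold (1.74 to 2.7) and AHL10, which adjusts growth under drought, with 2.03-fold (1.62 to 2.56) were those listed for H3K4me3 in the authors' deposited table. AHL11 had, beside regions called in both tissues, a short H3K4me3 region called in callus alone. The difference between the clades was not tested, and 10 of the 15 clade A genes were chosen with their folds in view.

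**Figure D4:**
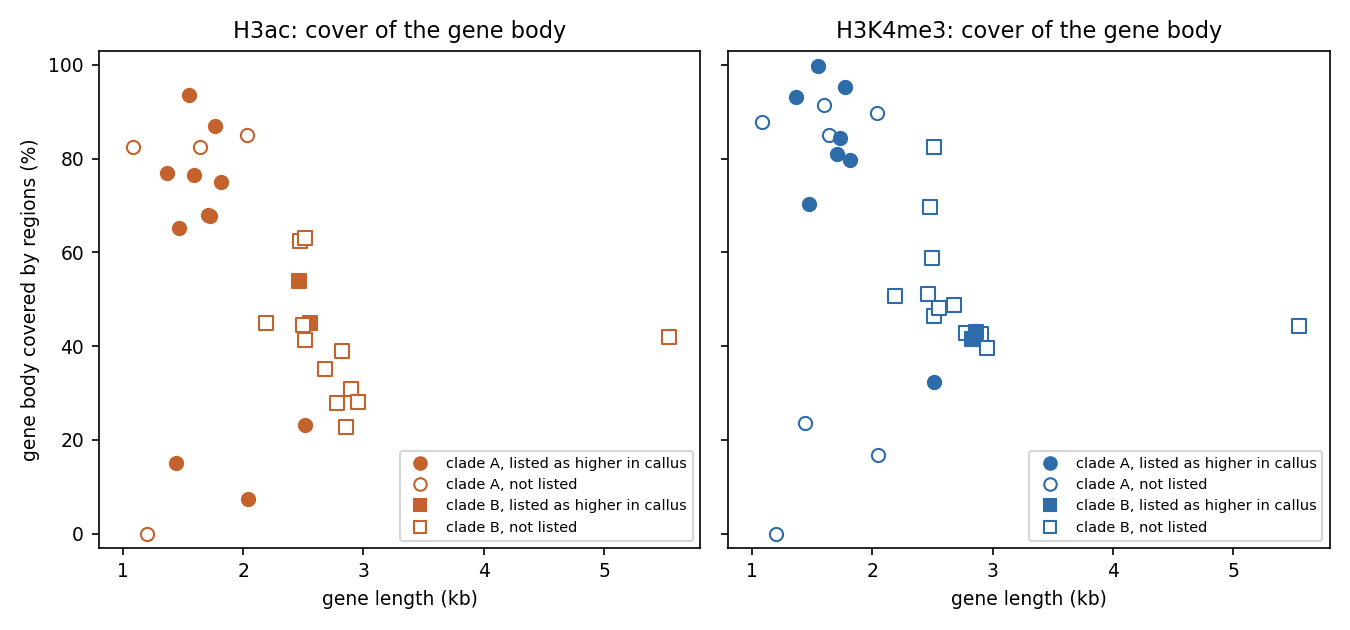
Share of each AHL gene body covered by regions (percent) against gene length (kb), for clade A (circles) and clade B (squares), filled where the gene was listed as higher in callus. Clade B genes (2191 to 5541 bp) are mostly longer than clade A genes (1085 to 2515 bp), and AHL16, AHL18, AHL24 and AHL26 are the clade A genes with little cover.

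Regions at most clade A genes, listed or not, covered most of the gene body and were centred near its middle. The main H3K4me3 region covered 79.6% to 99.8% of the body at the 6 listed genes (median 88.8%), and the main H3ac region 15% (AHL18) to 93.5% at the 7 listed genes (median 75.1%). Over the 14 clade A genes with a region on the body the medians were 84.7% for H3K4me3 and 75.8% for H3ac. The unlisted AHL15 had 89.7% and 85%, AHL17 85% and 82.5%, and AHL28 87.8% and 82.4%. Clade B genes had medians of 47.3% for H3K4me3 and 39% for H3ac. All genes within the span of clade A gene lengths, 1085 to 2515 bp, had medians of 51.5% and 42.5%. The centre of the main region lay 0.452% to 9.7% of the gene length from the middle of the gene for H3K4me3 and 1.03% to 7.28% for H3ac at the listed genes. Over clade A its median was 4.82% for H3K4me3 and 5.29% for H3ac. In clade B it lay 17.2% to 33.6% and 19.7% to 37.3% away. The tags were counted at the region centre, so they come from the middle of the gene in the listed AHL genes and from nearer an end in clade B. The part of this in the folds was not tested. The H3ac region of each listed gene lay 97% to 100% within its H3K4me3 region, which was 82 to 290 bp longer where both were listed.

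**Figure D5:**
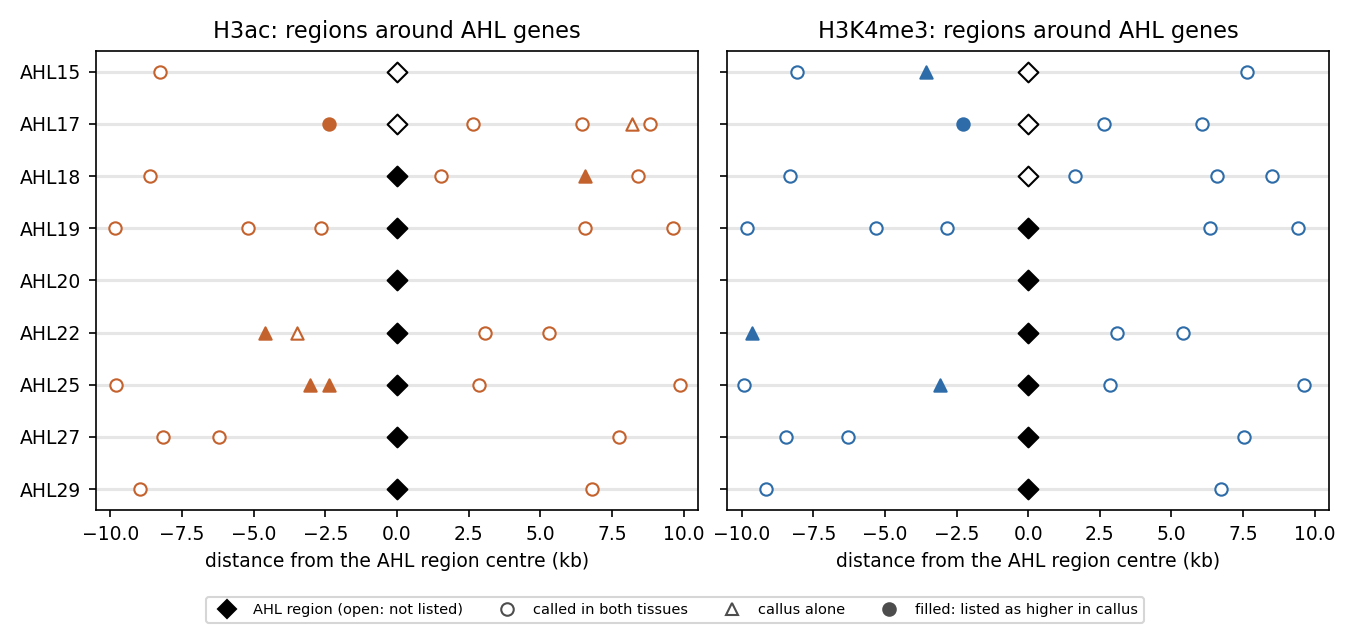
Other regions within 10 kb of the AHL region (diamond, filled where listed as higher in callus), by distance in kb in chromosome order. Circles were called in both tissues, triangles in callus alone, and filled symbols were listed as higher in callus. AHL16, with no region on its body, is not drawn, and AHL19 has 5 neighbouring regions of each mark, all called in both tissues and none listed.

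Most regions around the listed AHL genes were called in both tissues and not listed. Their listed share was nevertheless above that of all merged regions for each mark. The share of all merged regions called in both tissues is not given here, so no local contrast is read from the counts below. Within 10 kb of the 7 genes listed for H3ac lay 23 other H3ac regions, of which 18 were called in both tissues and 4 were listed as higher in callus (17.4%, against 7.98% of all merged H3ac regions). Within 10 kb of the 6 genes listed for H3K4me3 lay 17 other H3K4me3 regions, of which 15 were called in both tissues and 2 were listed (11.8%, against 7.32% of merged regions). AHL20 had no other region of either mark within 10 kb. AHL19 lay 9.64 kb from the clade B gene AHL14, measured between H3ac region centres, and AHL14 was called in both tissues and listed for neither mark. AHL22 lay 145 kb from AHL9 and AHL18 195 kb from AHL11 by the same measure, and AHL9 and AHL11 were listed for neither mark.

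Of the genes known to act upstream of, with or downstream of AHL proteins, BBM (also a callus marker above) was listed for both marks and YUC8 for H3ac. Regions of H3ac lay at 10 of 16 such genes, with 2 listed (20%, against 7.03% of all genes with an H3ac region). Regions of H3K4me3 lay at 11, with 1 listed (9.09%, against 8.01%). BBM, the AP2-type factor that acts upstream of AHL15, had 6.84-fold (2.85 to 20.6) for H3ac and 31.11-fold (13.1 to 97.2) for H3K4me3 in the authors' deposited table. YUC8, an auxin synthesis gene that AHL29 represses, had 2.6-fold (1.33 to 5.52) for H3ac, on 29.9 callus and 11.5 leaf tags in the authors' deposited table, and an H3K4me3 region in both tissues that was not listed. FLC, the flowering repressor gene on which AHL16 acts, carried H3ac only at 2 leaf-alone regions, beside 1 H3K4me3 region called in both tissues. The histone deacetylase genes HDA6, HDA9 and HDA19 and the complex subunit genes FVE and MSI5 had regions of both marks in both tissues and were not listed. FT, FWA, GA3OX1, SAUR19 and AMS had no region of either mark.

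Of the 475 genes listed for both marks with the region centre in the gene body, AHL25 was the nearest to AHL19 in the pair of log2 folds, at a distance of 0.26. Outside the AHL family the nearest were GH3.1, an auxin-conjugating enzyme gene (0.47), ABCG35, a transporter gene (0.49), CHAT, an acetyltransferase gene of leaf volatile synthesis (0.51), AT3G22800 (0.51) and AT3G15240 (0.52). The distance is Euclidean over 2 values, and the folds of these genes in the authors' deposited table ran from 14.7 to 16.22 for H3ac and from 7.09 to 13.78 for H3K4me3. AHL22 ranked 16 by this distance, AHL29 40, AHL20 135, AHL26 149, AHL21 157 and AHL27 230. The H3ac fold of AHL19 rests on 3.5 leaf tags and its interval, 6.45 to 76.7, holds the H3ac folds of all the genes named as nearest in the authors' deposited table, so the order among them is not determined. AHL19 and AHL25 were also chosen with these folds in view.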

How the data were processed

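Per the file headers, regions were called in each library, merged across tissues with HOMER mergePeaks and compared with HOMER's differential peak command, which kept regions with at least 2-fold more callus tags and a Poisson p of at most 0.01. HOMER was version 4.10.4, and SAMtools 1.11, Bowtie2 2.3.4.3 and the TAIR10 build also stand in the submitters' processing notes. No input library entered the tables. The authors deposited a score per merged region, a tag signal per tissue (callus scaled to leaf) and the fold, a ratio of these signals. How the score of a region called in both tissues was made is not given in the sources used here. The deposited names of the regions called in each library gave the calls.

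Regions were matched to genes of the RefSeq table for assembly TAIR10.1, which gives no strand. Its coordinates are not printed. An overlap of at least 1 bp counted, and all 55 genes of the lists matched by locus. A gene was counted as listed if at least 1 region was, and its highest fold was taken. Depth ratios came from tag steps (0.3652 for H3ac and 0.4923 for H3K4me3 in callus, 0.5 in leaf). Intervals are exact conditional ones in Clopper-Pearson form, computed with 1 tag as 1 read. PCR copies are not independent molecules. The intervals do not allow for listing by a high fold, so folds may lie too high. Functions were tested on simulated data. Python 3.11.15, pandas 2.3.3, NumPy 2.4.6 and SciPy 1.17.1 were used.

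The genes and lists were chosen with earlier results of these data known. Named were all 10 genes, other AHL and partner genes listed or called in 1 tissue alone, and the 5 genes nearest to AHL19. Other neighbours were named after their values were seen. Sequence features of the AHL genes were not analysed here. No test across samples was possible with 1 library per group.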

Additional observations from a re-analysis of the deposited data

How the results depend on the processing

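Counts of AHL genes stayed within 1.5 times their reported values under every alternative run. With the gene body alone or the region centre in the window, 9 of 10 genes had a region of each mark. The listed counts then stayed at 7 (H3ac) and 6 (H3K4me3), and the count for both marks, run with the gene body alone, at 6. A window of 1000 bp added AHL17 to each listed count (8 and 7), through a region over its neighbour AT5G49690 that lies 828 bp (H3ac) or 765 bp (H3K4me3) from its body. At 4-fold or more 6, 5 and 4 genes were left for H3ac, H3K4me3 and both marks. Among regions with a score at or above the median of the merged list, 6 and 4 were left. With a lower bound above 2, 7 and 6 were left. Apart from the 4-fold shares of each mark given above, shares of all genes under these settings are not given here. Nothing about the AHL genes is therefore read from these counts. Unscaled callus tags raised AHL19 to 24.9-fold for H3ac and 9.98-fold for H3K4me3, and the unscaled fold of each of the 13 listed AHL regions lay within its interval. Taking 0.5 tags as 1 read narrowed the AHL19 intervals to 8.62 to 45.8 (H3ac) and 7.4 to 13.3 (H3K4me3). It also separated further pairs of genes, and the marks at AHL20, as given above. H3ac folds rest on 3 to 29 leaf tags, which sets their wide intervals. No paired analysis was possible because each tissue and mark has 1 library.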

Other observations

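Some listed AHL genes had callus regions in the space beside them, outside any annotated protein-coding gene at their centre. Beside AHL25 on chromosome 4, H3ac regions called in callus alone lay 2357 bp and 3050 bp from the AHL25 region centre. They had 3.94-fold (1.91 to 9.11) and 2.6-fold (1.33 to 5.52) in the authors' deposited table, on 35.4 and 29.9 callus tags and 9 and 11.5 leaf tags. An H3K4me3 region from 16826636 to 16827071, 3093 bp away, overlapped the farther of them and had 106.8 callus and 30.5 leaf tags, 3.5-fold (2.32 to 5.42), in the authors' deposited table. Beside AHL22 on chromosome 2, H3ac regions called in callus alone lay 3507 bp away (not listed) and 4593 bp away, the latter, by the authors' deposited table, at 2.24-fold (1.22 to 4.38).

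Genes next to AHL genes also differed between tissues in places. The lateral root gene LBD18, 9652 bp from AHL22, had an H3K4me3 region with 77.3 callus and 8 leaf tags, 9.66-fold (4.67 to 23.2), in the authors' deposited table. AT3G55550, 3557 bp from AHL15, had an H3K4me3 region called in callus alone with 72.4 callus and 4 leaf tags, 18.09-fold (6.78 to 68.2), in the authors' deposited table, while AHL15 itself was not listed. AT5G49690, next to AHL17, had 2.37-fold (1.52 to 3.79) for H3ac and 2.64-fold (2.02 to 3.47) for H3K4me3 in the authors' deposited table. In the authors' deposited table FLA10, a fasciclin-like arabinogalactan protein gene 6574 bp from AHL18, had 2.79-fold (1.68 to 4.86) for H3ac. The lysine synthesis genes DHDPS1 beside AHL18 and DHDPS2 beside AHL22 had regions of both marks in both tissues and were not listed.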
